A study of Bos taurus with 8 samples.

Results

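Ion channels are the pores through which potassium, sodium, chloride and calcium cross cell membranes, and 89 genes for them are described here, those of the deposited table whose symbols belong to the potassium channel (KCN), voltage-gated sodium channel (SCN), chloride channel and transporter (CLCN), anoctamin (ANO), transient receptor potential (TRP, classes A, C, M and V) and PIEZO families. They were picked out by symbol from 18871 named genes, with the spread of *KCNJ5* among the subcutaneous clones singled out beforehand from earlier results of these data, and 86 of them had the total of at least 20 counts that was required for testing. The other 3 (*ANO3*, *KCNK15* and *SCN4B*) were listed but not tested. RNA-seq was available for 8 single-cell preadipocyte clones, 4 from intramuscular fat (IMF1 to IMF4) and 4 from subcutaneous fat (SF1 to SF4) of adult male Angus-crossbred steers, and the labels give no treatment that differed between the groups. The IMF samples were taken from *longissimus dorsi* muscle, and each clone was grown by limiting dilution from the stromal vascular fraction (SVF), the non-adipocyte cells released by collagenase. Each clone was picked for how it looked, grew and formed fat, so each group stands for 4 picked clones and not for its fat depot. The methods place RNA collection at subconfluence, before adipogenic induction, whereas the design text deposited with the data places induction before sequencing. Which IMF and SF clones share a steer is not given in the sources used here. The paper describes each selected clone as coming from an SVF sample, with SVF isolated separately from each tissue sample. Read as a different animal for each clone of a group, the spread between clones that p-values measure holds clone and animal together.

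Potassium channels hold the resting membrane potential negative and end electrical activity, and voltage-gated sodium channels start action potentials in nerve and muscle. CLCN proteins carry chloride across the plasma membrane or exchange it for protons in endosomes and lysosomes, and anoctamins are calcium-activated chloride channels or lipid scramblases. TRP channels are cation pores opened by ligands, temperature, lipids or store depletion, and PIEZO channels open when the membrane is stretched. In muscle precursors, inward-rectifier and ether-a-go-go potassium channels are known to take part in differentiation.

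The clones had between 19654917 and 29308882 counts on named genes, and levels are given as CPM (counts scaled to library size after TMM normalization) or, for comparisons between genes, as TPM (counts divided by gene length and scaled to a common sum). A count of 3 corresponded to 0.0981 CPM in the deepest library and 0.165 CPM in the library with the highest such floor, and these floors cover counting error only. Preadipocyte markers summed to 1322 to 1382 CPM in IMF and 1409 to 1881 CPM in SF, most of it from *ITGB1* (means of 924 CPM in IMF and 1260 CPM in SF), *PDGFRB* and *PDGFRA*. *DLK1* (1.29 and 0.685 CPM), *PPARG* (1.23 and 3.13 CPM) and *CD34* (10.5 and 0.0483 CPM) were far lower, and markers of other cell types were also present. Of 11 skeletal muscle markers tested, 11 were higher in the IMF clones, and their summed level was 534 to 651 CPM in IMF against 0.801 to 22.7 CPM in SF. In SF1, SF3 and SF4 most of that level came from *DES* (means of 97.6 CPM in IMF and 12.1 CPM in SF). Of 12 endothelial markers, 11 were higher in IMF, and the list summed to 366 to 415 CPM in IMF against 27.3 to 38.2 CPM in SF. Most of this SF level came from *CLDN5*, the marker that did not pass (means of 36.9 CPM in IMF and 31.2 CPM in SF, adjusted p = 0.492 in edgeR). In both lists 7 genes did not exceed 3 counts in any SF clone, *MYOD1*, *CD93* and *KDR* among them at 0. Epithelial markers were higher in IMF for 2 of 2 genes, adipocyte markers for 1 of 3 and Schwann and neural markers for 1 of 5, and leukocyte and preadipocyte markers each had 1 gene higher and 1 lower. The IMF clones were thus higher for the muscle and endothelial lists as for the channel genes given below as higher in IMF, and the part of those cells in the results was not tested. Fewer cells of a type and less RNA per cell cannot be told apart in such RNA.

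Between the groups, 15 of the 86 channel genes tested passed both thresholds (adjusted p-value under 0.05 and absolute log2 fold change, log2FC, of at least 1, IMF over SF, in the quasi-likelihood test of edgeR, Benjamini-Hochberg adjusted over 18339 genes). This was 17.4% of the channel genes, against 8.82% of all genes tested. Adjusted p-values below are from this fit unless another tool is named, and SE is the standard error of log2FC. Of the 15, 11 were higher in the IMF clones (12.8% of the channel genes, against 4.78% of all genes) and 4 were lower (4.65%, against 4.04%). At an adjusted p-value under 0.05 with any fold change, 21 channel genes passed, or 24.4%, against 25.8% of all genes. The IMF and SF clones did not overlap in 22 channel genes (25.6%, against 32.1% of all genes). The median log2 fold change of the channel genes was 0.03 and that of all genes tested was -0.03, and 44 channel genes had a positive and 42 a negative value. In 6 of the 11 genes higher in IMF, no SF clone exceeded 3 counts (6.98% of the channel genes, against 0.943% of all genes). In 2 of the 4 lower genes, no IMF clone exceeded 3 counts (2.33% of the channel genes, against 0.191% of all genes).

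**Figure D1:**
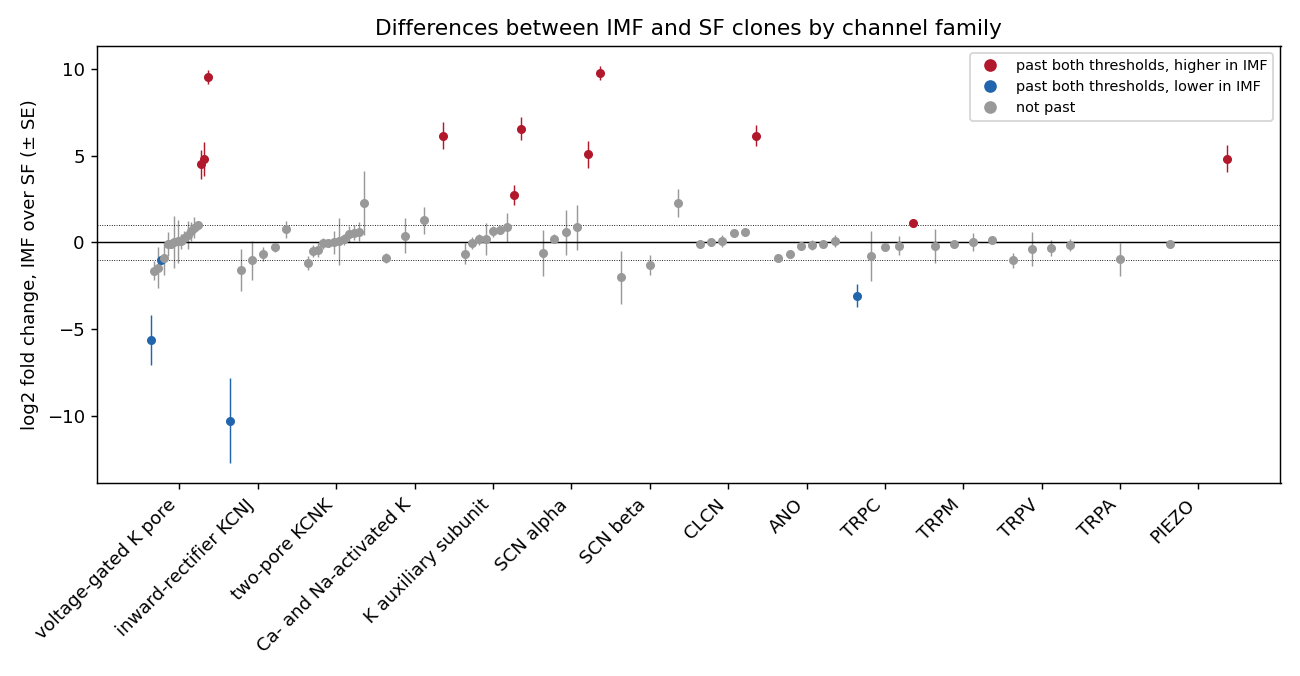
Log2 fold change of each of the 86 channel genes tested (IMF over SF, vertical axis, bars are the standard error, SE, of the edgeR fit), grouped by family on the horizontal axis. Red points are the 11 genes past both thresholds and higher in IMF, blue points the 4 that were lower, and gray points the genes that were not past, most of which lie between the dotted lines at -1 and 1.

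The sodium channel genes were divided. *SCN1A*, which encodes a pore-forming subunit best known from neurons, had 113, 155, 95 and 109 counts in IMF1 to IMF4 and 0 in all 4 SF clones. With 3 counts put in each SF clone, its level of 5.00 ± 0.482 CPM (SD, n = 4) in IMF was at least 33.8-fold higher (adjusted p = 9.36e-05). *SCN9A*, a pore-forming subunit of sensory neurons, had 119, 199, 149 and 122 counts across IMF1 to IMF4 against 0, 0, 12 and 3 across SF1 to SF4. The groups did not overlap, and log2FC was 5.11 (SE 0.78, adjusted p = 0.00209), or 6.71 without SF3. Both genes lie in a sodium channel cluster on chromosome 2, *SCN9A* at 29924631 to 30089670 and *SCN1A* at 30163817 to 30320876 (ARS-UCD2.0), with 74.1 kb between their spans. *SCN2A*, 560 kb further along the same cluster and the SCN pore gene with the highest mean TPM over the clones, had from 93 to 147 counts in IMF and from 49 to 124 in SF, so that its groups overlapped (log2FC 0.22, SE 0.26, adjusted p = 0.592). *SCN4A*, the pore subunit of adult skeletal muscle fibers, was looked up after the other values were seen. It had 2, 0, 0 and 16 counts across IMF1 to IMF4 against 4, 4, 16 and 4 across SF1 to SF4, all even numbers, and its log2FC was -0.61 (SE 1.32, adjusted p = 0.781).

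Among the 18 genes for pores of voltage-gated potassium channels, 3 were higher and 2 lower in IMF (over all genes tested, 4.78% were higher and 4.04% lower). *KCNB2*, a delayed rectifier, had 98, 163, 117 and 115 counts in IMF and 37, 50, 49 and 74 in SF. The *KCNB2* groups did not overlap, and its log2FC of 0.99 (adjusted p = 0.0227) stopped just short of the fold-change threshold. *KCNH8*, of the ether-a-go-go family, was low in both groups, with 15, 15, 10 and 8 counts in IMF and 1, 0, 0 and 0 in SF. The ratio of its pooled levels was 41.8, with an exact 95% counting interval from 7.15 to 1684 (adjusted p = 0.0082). *KCNH1*, of the same family and known from human myoblast differentiation, was looked up after its values were seen and had from 10 to 30 counts in both groups (adjusted p = 0.924). *KCNG1*, a modifier subunit and the gene of this class with the highest mean TPM, was at 3.51 ± 0.692 TPM in IMF and 2.26 ± 2.05 TPM in SF (log2FC 0.64, SE 0.54, adjusted p = 0.426).

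*KCNC1*, which encodes a fast-closing channel of rapidly firing neurons, had 0 counts in every IMF clone and 10, 8, 2 and 2 in the SF clones, at least 2.12-fold lower in IMF against a floor of 3 counts in each IMF clone (adjusted p = 0.0428). Its 8 counts are all even, and its adjusted p rose above 0.05 without any single IMF clone (0.0649 to 0.0731), without SF3 (0.0535) and without SF4 (0.0679). *KCNC4* had 20, 48, 32 and 34 counts in IMF and 192, 31, 72 and 54 in SF, with overlapping groups (log2FC -1.62, adjusted p = 0.0617). Of the tested channel genes, 13 had only even counts (15.1%, against 8.60% of all genes tested), among them *TRPV2* at from 560 to 1128 counts, and the source of this pattern was not tested.

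Calcium-activated potassium channels couple calcium signals to membrane potential, and here a small-conductance pore and 2 auxiliary subunits of the large-conductance channel were higher in IMF. *KCNN3*, the small-conductance pore, had 48, 73, 47 and 38 counts in IMF and 2, 0, 0 and 0 in SF. The ratio of pooled levels was 89.7 with an exact 95% counting interval from 24.5 to 745 (adjusted p = 0.000787). *KCNMB1*, the beta subunit that raises calcium sensitivity of the large-conductance channel in smooth muscle, had 64, 90, 55 and 56 counts in IMF and 0, 0, 2 and 0 in SF, a ratio of 115 (exact 95% counting interval 31.6 to 957, adjusted p = 0.000297). *KCNMB4*, the beta subunit known from brain, had 33, 76, 47 and 47 counts in IMF and 3, 2, 18 and 4 in SF, without overlap (log2FC 2.75, SE 0.57, adjusted p = 0.00927, and 3.67 without SF3). The pore gene *KCNMA1* had 149, 283, 228 and 179 counts in IMF and 3, 33, 130 and 136 in SF. The IMF clones were at 8.81 ± 1.34 CPM, and SF4 at 7.49 CPM lay above IMF1 at 7.15 CPM, so that the groups overlapped, and the log2FC of 1.27 (SE 0.76) gave an adjusted p of 0.262. The intermediate-conductance gene *KCNN4*, the member of this class with the highest TPM, was at 6.69 ± 2.54 TPM in IMF and 12.3 ± 4.71 TPM in SF (log2FC -0.91, adjusted p = 0.0562).

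The reads of the beta subunits are given with their positions. *KCNMB1* (chromosome 20, 2256775 to 2269577) lies inside the span of *KCNIP1*, another channel gene of the set, which had from 4 to 26 counts in IMF and from 2 to 11 in SF with overlapping groups (adjusted p = 0.512). *KCNMB4* (chromosome 5, 43010816 to 43120903) overlaps the span of *PTPRB*, an endothelial phosphatase gene that had 150, 255, 180 and 210 counts in IMF and 40, 13, 31 and 15 in SF (log2FC 2.81, adjusted p = 0.000677). These are overlaps of gene spans, exons were not compared, and the sources differ on whether strand was kept, so any sharing of reads between these genes was not tested. In all, 16 of the 89 spans overlapped another gene in the table, 5 of them among the 15 genes past the thresholds.

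*CLCN4*, an endosomal chloride-proton exchanger encoded on the X chromosome, had 48, 71, 45 and 40 counts across IMF1 to IMF4 against 0, 1, 1 and 0 across SF1 to SF4. The ratio of pooled levels was 88.8 with an exact 95% counting interval from 24.3 to 738 (adjusted p = 0.000189). Its closest relatives moved far less. *CLCN5*, also on the X chromosome, was at 27.5 ± 1.35 CPM in IMF against 18.9 ± 3.19 CPM for SF (log2FC 0.55, adjusted p = 0.0141), and *CLCN3* was at 17.7 ± 1.05 against 11.6 ± 2.34 CPM (log2FC 0.61, adjusted p = 0.0191). Neither gene had overlapping groups, and both fell below the fold-change threshold. *CLCN7*, the lysosomal exchanger and the CLCN gene with the highest TPM, was at 41.8 ± 0.157 CPM in IMF, SF was at 45.2 ± 8.27 CPM, and it did not pass (log2FC -0.11, adjusted p = 0.544). *PIEZO2*, the stretch channel of touch neurons, had 38, 62, 52 and 50 counts in IMF and 0, 1, 5 and 0 in SF, without overlap (log2FC 4.84, SE 0.76, adjusted p = 0.00247, and 6.52 without SF3). *PIEZO1*, the more widely expressed paralog, overlaps the span of *CTU2* and was abundant in all 8 clones, from 37.3 to 46.2 TPM in IMF and from 37.9 to 50.7 TPM in SF (log2FC -0.10, SE 0.10, adjusted p = 0.499).

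**Figure D2:**
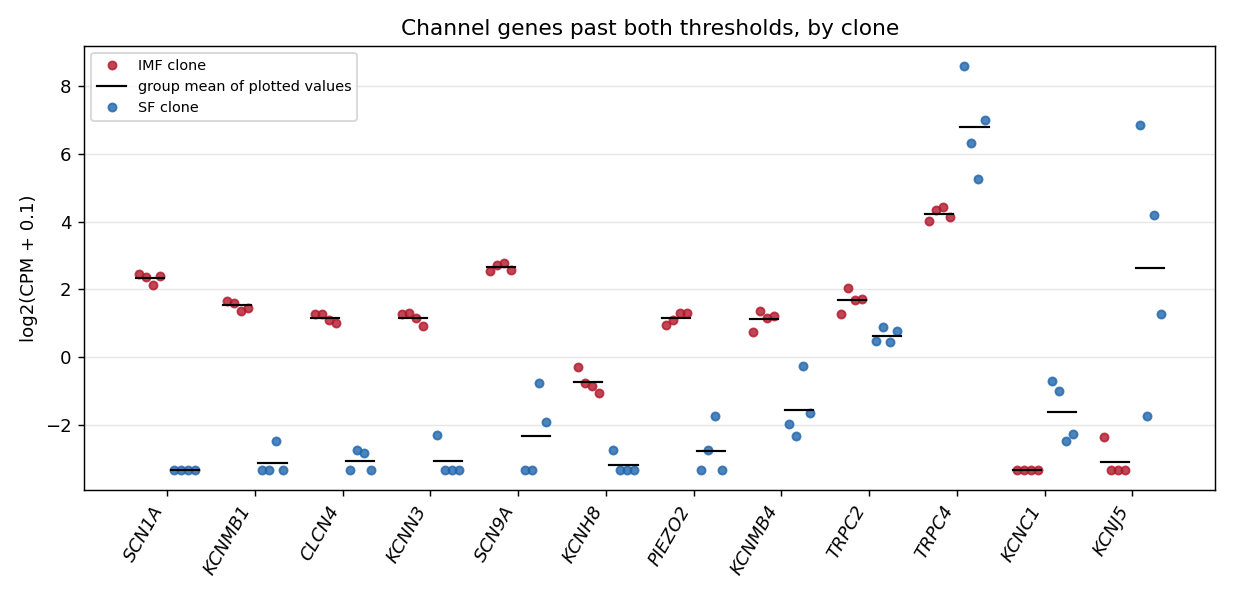
Levels of 12 of the 15 channel genes past both thresholds in each clone, as log2(CPM + 0.1), ordered by log2 fold change from the highest on the left, with a bar at the mean of the plotted values of each group. The SF points of *KCNJ5* run from 0.200 to 115 CPM, and for *SCN1A* all SF points lie at the bottom, at 0 counts.

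Of 14 TRP genes tested, 1 was higher and 1 lower in IMF, both of the TRPC class. Over all genes tested, 4.78% were higher and 4.04% lower, and nothing is read from the TRP count. *TRPC4*, a receptor-operated calcium entry channel, had 336, 615, 474 and 365 counts across IMF1 to IMF4 against 7499, 1604, 950 and 2330 across SF1 to SF4. Every SF clone lay above every IMF clone, and log2FC was -3.07 (SE 0.65, adjusted p = 0.0097), with 18.8 ± 2.46 CPM in IMF against 158 ± 156 CPM for SF. SF1 was 9.98 times SF3 (exact 95% counting interval 9.33 to 10.7), and without SF1 log2FC was -2.13. A long noncoding RNA gene within the *TRPC4* span, *LOC112449047*, had 3, 7, 2 and 3 counts in IMF and 116, 15, 9 and 25 in SF, the same order of SF clones as *TRPC4*. *TRPC2*, a pheromone-transduction channel in rodents, had 48, 124, 69 and 67 counts in IMF and 25, 35, 31 and 29 in SF (log2FC 1.11, SE 0.24, adjusted p = 0.0109), and without IMF2 log2FC was 0.94. *TRPC1* and *TRPC6* did not pass, with adjusted p-values of 0.0955 and 0.844. *TRPM7*, a channel with its own kinase domain that carries magnesium, was at 10.8 ± 1.37 TPM in IMF and 9.74 ± 2.14 TPM in SF (log2FC 0.13, SE 0.11, adjusted p = 0.43).

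The heat sensors *TRPV3* and *TRPV1* and the irritant receptor *TRPA1* had a low level in IMF2. *TRPV3* had 1631, 446, 926 and 874 counts across IMF1 to IMF4, and the SF clones had 1556 to 1985 (log2FC -1.02, SE 0.43, adjusted p = 0.118). *TRPV1*, which lies 4.68 kb from *TRPV3* on chromosome 19, had 45, 0, 26 and 24 counts in IMF and 42, 28, 10 and 34 in SF. *TRPA1*, on chromosome 14, had 95, 0, 32 and 70 counts in IMF and 133, 84, 52 and 92 in SF. In all 3 genes IMF1 was the highest and IMF2 the lowest of the IMF clones. IMF2 was the deepest library, and the part of depth in this order was not tested. *TRPC6*, a lipid-gated calcium entry channel, also had its highest level in IMF1 and its lowest in IMF2 (14.2, 1.57, 4.08 and 9.61 CPM in IMF1 to IMF4). So did the leukocyte marker *PTPRC* (19.2, 1.90, 7.12 and 10.5 CPM) and the ATP-gated channel *P2RX1* (13.8, 0.458, 2.27 and 5.04 CPM), named after their values were seen. The part of leukocyte RNA in this pattern was not tested. *TRPV1* and *TRPA1* were the only channel genes with a mean of at least 1 CPM in IMF whose highest IMF clone was at least 10 times the lowest, with at least 22.0-fold and at least 46.5-fold between IMF1 and the floor in IMF2 (3.08% of 65 such channel genes, against 2.63% of all genes at that level). Neither passed the comparison of the groups (adjusted p = 0.811 and 0.504).

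Inward rectifiers of the KCNJ family set the resting potential, and *KCNJ5* encodes a G protein-gated member known from the heart atrium and the adrenal cortex. It lies on chromosome 29 at 32262418 to 32290706. *KCNJ5* had 2, 0, 0 and 0 counts across IMF1 to IMF4 against 2249, 4, 445 and 42 across SF1 to SF4. In CPM, SF1 was at 115, SF3 at 18.1, SF4 at 2.31 and SF2 at 0.200. All 4 SF clones lay above all 4 IMF clones, but SF2 did so by only a few counts. The ratio of SF1 to SF2 was 577 (exact 95% counting interval 225 to 2118). The ratio between the highest and the lowest SF clone was 90.2 without SF1 and 49.9 without SF2. The ratio of the pooled levels, SF over IMF, was 1574 (exact 95% counting interval 435 to 13002), and log2FC was -10.30 (SE 2.44, adjusted p = 0.0161), with -8.00 without SF1 and -12.56 without IMF1. With limma-voom the adjusted p was 0.569, and it exceeded 0.05 without IMF1 (0.087), without IMF2 (0.0521) and without IMF3 (0.0523). Ranked by mean TPM in SF, *KCNJ5* was number 13 of the 89 channel genes (9.74 ± 15.6 TPM, SD, n = 4), with SF1 at 32.8 TPM.

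The 6 genes around *KCNJ5* had at least 29 counts in every clone. Of the 3 genes in the table on each side of it, the nearest were *FLI1*, which encodes an ETS transcription factor, 78.2 kb to the left, and *ARHGAP32*, which encodes a GTPase-activating protein, 36.7 kb to the right. *FLI1* had 134, 200, 156 and 139 counts in IMF and 159, 92, 123 and 95 in SF, and *ARHGAP32* had from 1266 to 2033 in IMF and from 1045 to 1899 in SF. SF1 was the highest SF clone for *FLI1* as well, and the groups overlapped. Of the 6 neighbors, *ETS1* was higher in IMF below the fold-change threshold (log2FC 0.55, SE 0.08, adjusted p = 0.00147), and the other 5 had adjusted p-values from 0.122 to 0.75.

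**Figure D3:**
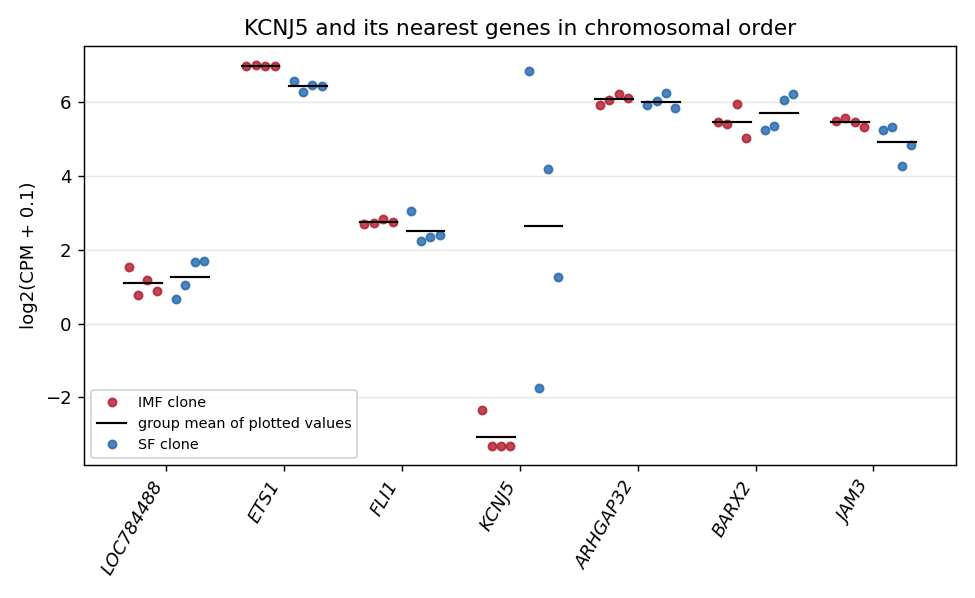
Levels of *KCNJ5* and of the 3 genes in the table on each side of it, in chromosomal order, as log2(CPM + 0.1) in each clone, with a bar at the mean of the plotted values. The SF points of *KCNJ5* run from 0.200 to 115 CPM, a range that no neighbor shows.

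The other 5 KCNJ genes tested did not pass. *KCNJ2*, a strong inward rectifier that is known to start human myoblast differentiation, had 120, 179, 147 and 119 counts in IMF and 18, 87, 166 and 37 in SF, so that SF3 reached the IMF range (log2FC 0.76, SE 0.50, adjusted p = 0.314). *KCNJ11*, the pore of the ATP-sensitive channel of muscle and pancreatic beta cells, had at most 26 counts in a clone, all even. *KCNJ14* had from 116 to 331 counts in IMF and from 203 to 392 in SF (adjusted p = 0.271).

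*KCNJ5* was not alone in differing between SF clones. Of 55 channel genes with a mean of at least 1 CPM in SF, 5 had a highest SF clone at least 10 times the lowest (9.09%, against 2.18% of all genes at that level). *KCNJ5*, whose spread among SF clones was part of the choice of genes, is 1 of the 5, and without it the count was 4 of 54 (7.41%). *KCNE4*, an inhibitory auxiliary subunit of potassium channels, had 11, 1787, 1056 and 292 counts in SF1 to SF4, a ratio of 158 between SF2 and SF1 (exact 95% counting interval 88.3 to 318). In the IMF clones *KCNE4* was even, at 42.6 ± 3.04 CPM, and its mean of 37.2 ± 38.9 CPM in SF gave a log2FC of 0.19 (SE 0.92, adjusted p = 0.905). *KCNMA1*, with 3 counts in SF1 and 136 in SF4, had a ratio of 48.7 (exact 95% counting interval 16.3 to 239). *KCNK12*, a tandem-pore subunit, had 14, 207, 323 and 272 counts in the SF clones, a ratio of 20.9 between SF4 and SF1 (12.2 to 38.7). *KCNT2*, a sodium-activated potassium channel, had 90, 0, 20 and 197 counts in the SF clones, at least 72.3-fold between SF4 and the floor in SF2, and from 109 to 165 in the IMF clones. SF1 was thus the lowest SF clone for *KCNE4*, *KCNMA1* and *KCNK12* and the highest for *KCNJ5*, and SF2 was the lowest for *KCNJ5* and *KCNT2*. Over all 330 genes with such a ratio, SF1 was the lowest clone in 39.1% and the highest in 33.9%. The 4 genes other than *KCNJ5* did not pass the comparison of the groups. Smooth muscle and pericyte markers, of which 4 of 6 tested were lower in IMF and 2 higher (*MCAM*, log2FC 4.26, adjusted p = 0.0209, and *MYH11*, log2FC 1.59, adjusted p = 0.0314), also differed between the SF clones. Their summed level ran from 3240 to 11039 CPM, most of it from *ACTA2* and *TAGLN*. *ACTA2* had 126473 counts in SF1 against from 26590 to 72169 in the other 3. SF1 was also the highest SF clone for *TAGLN*, *CNN1*, *MCAM* and *MYH11*, but the lowest for *CSPG4* (122 CPM, against 330 CPM in SF4). The part of these markers in the ratios between clones was not tested.

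**Figure D4:**
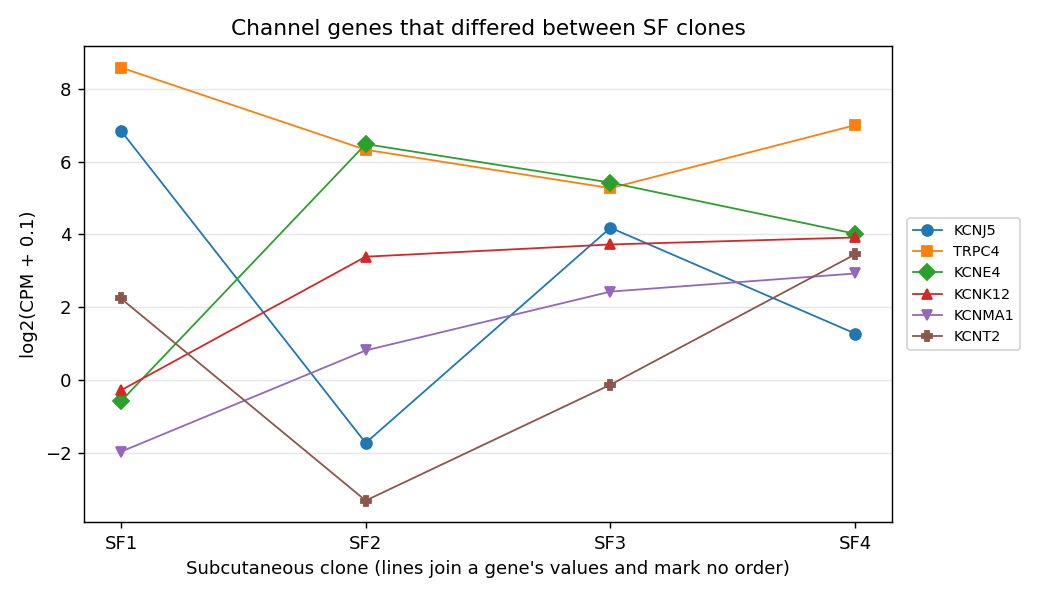
Levels of *KCNJ5*, *TRPC4* and the 4 other channel genes that differed most between the SF clones, as log2(CPM + 0.1) on the vertical axis for SF1 to SF4 on the horizontal axis. *KCNJ5* and *TRPC4* have their highest point in SF1, where *KCNE4*, *KCNK12* and *KCNMA1* have their lowest.

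By length-adjusted level, the most abundant channel genes were mostly ones that did not pass the thresholds. Of the 89 genes, 13 had a mean of at least 10 TPM in a group and 41 were under 1 TPM in both groups. *KCNK7*, a tandem-pore subunit that is not known to form a working channel alone, had the highest level, 210 ± 54.5 TPM in IMF and 180 ± 58.4 TPM in SF (log2FC 0.20, adjusted p = 0.694). Its span lies 237 bases from that of *EHBP1L1*. *ANO9*, an anoctamin of epithelia, was at 80.8 ± 26.0 TPM in IMF and 147 ± 27.8 TPM in SF. The SF clones all lay above the IMF clones for *ANO9*, with a log2FC of -0.92 (SE 0.24, adjusted p = 0.0245) that did not reach the threshold. *ANO6*, the phospholipid scramblase that most cell types express, was at 39.8 ± 2.34 TPM in IMF and 41.2 ± 2.91 TPM in SF (adjusted p = 0.577). *ANO10*, which overlaps *SNRK*, had 295 to 484 counts in IMF and 426 to 549 in SF without overlap in CPM (log2FC -0.66, SE 0.08, adjusted p = 0.00065). Of the 15 genes past the thresholds, 4 reached 2 TPM in either group, *TRPC4*, *KCNJ5* and *KCNMB1* among them, and the other 11 were below this level. The 12 tested tandem-pore KCNK genes, which carry background potassium leak, had 0 past the thresholds in edgeR, where 8.82% of all genes passed. Of the 12, 1 had an unadjusted p-value under 0.05 (*KCNK10*, named after its values were seen, log2 fold change -1.17, adjusted p = 0.06). DESeq2 and limma-voom each placed 1 of the 12 past the thresholds.

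**Figure D5:**
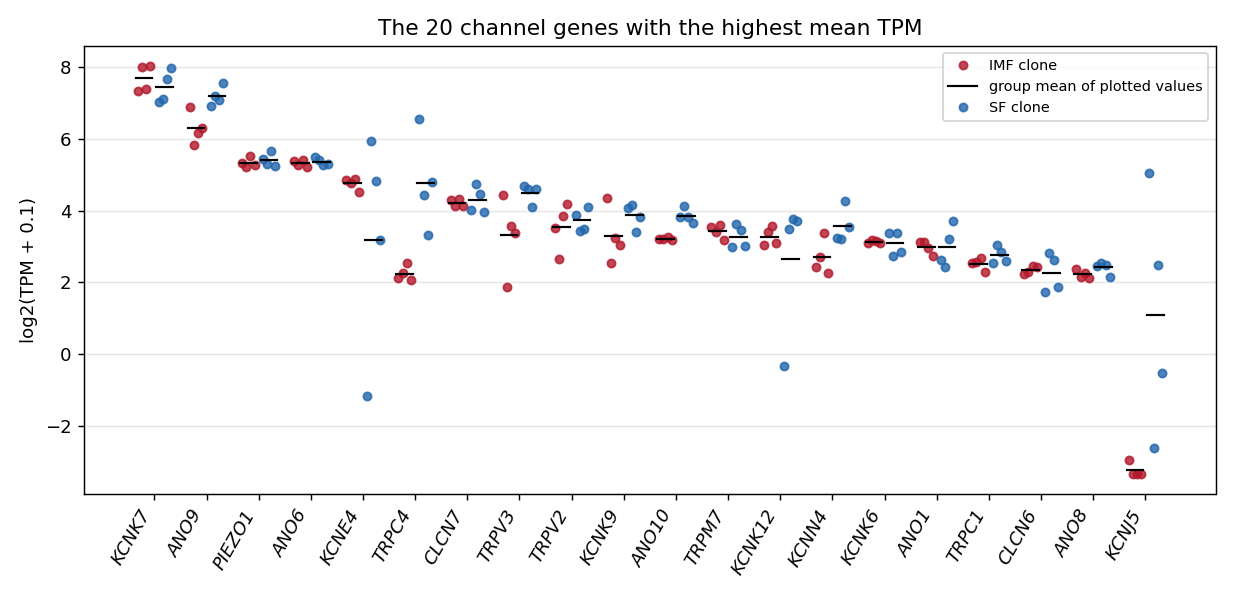
Levels of the 20 channel genes with the highest mean TPM over the 8 clones, as log2(TPM + 0.1) in each clone, with a bar at the mean of the plotted values of each group. *KCNK7* and *ANO9* are the highest in both groups, and *TRPC4*, *KCNE4*, *KCNK12* and *KCNJ5* show the widest spread of SF points, with *KCNJ5* running from 0.0632 to 32.8 TPM.

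Related genes outside the families were taken from lists of other channels, partners and pumps, which were drawn up with earlier results in view. As a yardstick for the counts below, 4.78% of the 18339 fitted genes passed both thresholds upward in IMF and 4.04% downward. Of 22 calcium channel and store-entry genes tested, 1 was higher and 5 were lower in IMF (median log2 fold change -0.19). *STIM1*, the calcium sensor of the endoplasmic reticulum, was at 6.30 TPM in IMF and 13.2 TPM in SF (log2FC -1.08, adjusted p = 0.00147), and *CACNB3*, *CACNA1A* and *CACNA1G* were lower by log2FC values from -1.20 to -1.19. *CACNA1E*, a neuronal pore subunit, had 6, 14, 13 and 16 counts in IMF and 448, 91, 186 and 225 in SF (log2FC -4.49). *CACNA1S*, the pore of the skeletal muscle voltage sensor, was chosen after its values were seen and had 83, 91, 73 and 69 counts in IMF and 0 in every SF clone, at least 22.9-fold higher. Of 10 partner genes tested, 2 were higher in IMF. These were *FGF11*, a sodium channel-binding factor (log2FC 5.34, adjusted p = 0.00206), and *ANK3*, which anchors sodium channels in the membrane (378, 459, 360 and 373 counts in IMF, and 0, 28, 23 and 30 in SF). Of 31 other channel genes tested, 1 was higher (*P2RX7*, log2 fold change 1.27) and 3 were lower (*P2RX4*, *CLIC5* and *MCOLN3*, from -2.26 to -1.25). Of 11 sodium-potassium pump genes, 1 was higher. This was *ATP1B1*, a beta subunit of the pump, at 41.2 TPM in IMF and 5.49 TPM in SF (log2FC 2.85, SE 0.35, adjusted p = 0.0007).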

How the data were processed

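Gene-level counts of 8 bulk RNA-seq libraries were used as deposited, and the authors' group means and differential expression columns were not used. Trimming by the authors used Trimmomatic 0.39, alignment used the ARS-UCD2.0 build, and featureCounts 2.0.2 gave the counts. The methods name HISAT2 as the aligner and a non-stranded kit, whereas the submitters' processing notes name STAR 2.7.11a and the deposited protocol describes strand marking, so neither aligner nor strand is settled here. How reads shared by paralogs or overlapping genes were counted is therefore uncertain.

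Library totals ran from 19654917 to 29308882 counts. A row naming no gene (0.0148% to 0.0209% of counts) was left out. Genes with at least 20 counts in total were fitted with TMM normalization and edgeR 4.0.16 (quasi-likelihood test, Benjamini-Hochberg adjustment, R 4.3.3), IMF against SF, 4 clones each. Thresholds were an adjusted p-value of 0.05 and an absolute log2 fold change of 1. The fit was tested on simulated data. Standard errors were the absolute log2 fold change divided by the square root of F. TPM used the deposited gene lengths. Counting intervals are exact (Clopper-Pearson, 95%) and cover counting error only. Positions are those of RefSeq on ARS-UCD2.0.

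The channel genes and related lists were chosen with earlier results of these data known. Named were the channel genes past both thresholds, the gene with the highest mean TPM in each family, *KCNJ5* with 3 genes on each side, genes with a ratio between clones of at least 10 and a mean of at least 1 CPM, and at most 5 genes past the thresholds per related list. Others are named because their values had been seen, among them some, but not all, of the genes with an adjusted p-value under 0.05 and a smaller fold change. Alternatives were DESeq2 1.42.0, limma-voom (limma 3.58.1), other normalizations, filters and prior counts, testing against an absolute log2FC of 1, robust dispersion, a replicate block and leaving out each clone. Figures were drawn with Python 3.11.15. Some channel genes that entered the fit and the counts are not reported here by name.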

Additional observations from a re-analysis of the deposited data

Results flagged for a closer look

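Of 59 groups of 4 clones examined for the named genes, 7 held a clone that stood apart by Dixon's test, which chance alone gives in about 1 in 20 groups, and nothing is read from their number. In 4 of the 7 the other clones were at 0, so that 1 or 2 counts were enough: *KCNH8* in SF1 (0.0513 CPM), *KCNJ5* in IMF1 (0.0960 CPM), *KCNMB1* in SF3 (0.0812 CPM) and *KCNN3* in SF1 (0.103 CPM). Of the other 3, *KCNJ5* in SF1 was at 115 CPM with the next SF clone at 18.1 CPM, which is a description, since its spread among SF clones was part of the choice of genes. *ANO9* in SF4 was at 356 CPM, with the next SF clone at 228 CPM. *KCNT2* in IMF3 was at 4.94 CPM, below the nearest IMF clone at 5.40 CPM.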

How the results depend on the processing

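Of the 15 channel genes past the thresholds, 9 stayed past under every alternative that tested them, *CLCN4*, *KCNH8*, *KCNMB1*, *KCNN3*, *PIEZO2*, *SCN1A* and *SCN9A* among them. The other 6, *KCNC1*, *KCNJ5*, *KCNMB4*, *TRPC2* and *TRPC4* among them, were lost under at least 1, with 8 alternatives of 16 for *KCNC1*, and without a change of sign. Against a log2 fold change of 1, 9 channel genes passed, 9 higher and 0 lower in IMF (3 of the lower ones at an unadjusted p-value under 0.05), and 631 of all genes. Only 2 were lower with at least 10 counts in 4 clones, and 2 with a replicate block (14 past in all, and 1489 of all genes). Pairing by replicate number was not established: deviations of same-numbered clones had a mean correlation of 0.055 (4 pairs), against -0.018 for different numbers (12 pairs), and 2 of 4 correlated best with their own number. The adjusted p of *KCNC1* was 0.206 with the block. Leaving out 1 clone gave 12 to 17 channel genes past, 10 to 12 higher and 2 to 5 lower (2 without IMF2, SF1 or SF4), and 1332 to 1643 of all genes. The *KCNJ5* ratio was 49.9 to 577 without 1 SF clone. DESeq2 called 18 channel genes and 1996 of all genes, and limma-voom 16 and 1772. Scaling by total counts alone moved the all-gene median from -0.03 to 0.12 on the log2 scale, with 1078 higher and 539 lower.

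Signs changed only for genes not past the thresholds. Without 1 clone, log2FC ran from -0.21 (without SF1, and -0.06 without SF4) to 1.10 for *KCNE4*, from -0.020 (without SF2) to 1.57 for *KCNT2*, from -0.93 to 0.018 (without IMF2) for *TRPV1*, from -0.20 to 0.00061 (without SF2) for *CLCN7* and from -0.39 to 0.28 for *KCNK12* (0.09 without IMF1, 0.04 without IMF4, 0.03 without SF2, 0.15 without SF3 and 0.28 without SF4). With total counts it was 0.025 for *CLCN7*, 0.046 for *PIEZO1* and 0.16 for *KCNK12*, which was also at 0.60 with limma-voom, 0.014 with upper-quartile factors and 0.39 with the replicate block. The cause was not tested. Where all clones of a group had 3 counts or fewer, depth limited the size of the fold change.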
